A study of Mus musculus with 39 samples.

Results

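The chemokine and chemokine receptor genes described here are those on the array whose single symbol begins with Ccl, Cxcl, Ccr or Cxcr and a digit, together with Cx3cl1 and Xcl1. They number 47 of the 12393 genes that the array names by a single symbol, 32 of them ligands and 15 receptors. Each gene is given by 1 probe set, the one with the highest mean over the arrays. In all, 63 probe sets carry these names, and 13 genes have more than 1. Chemokines are small secreted proteins that direct the movement of leukocytes and microglia. They are grouped by the spacing of their first cysteines into CC, CXC, C and CX3C types, and they act through receptors coupled to inhibitory G proteins. In the brain, Cx3cl1 on neurons and its receptor on microglia are part of resting communication between these cells, whereas Ccl2, Ccl3, Ccl4 and Cxcl10 are known as products of activated microglia and astrocytes.

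Total RNA of the inferior colliculus, the auditory centre of the midbrain, was measured in 39 CBA/CaJ mice, 1 Affymetrix MOE430A array per mouse. The severe presbycusis group held 5 mice (4 females and 1 male), the mild presbycusis group with limited hearing loss 9 mice (4 females and 5 males), the middle-aged mice, whose hearing was good, 17 animals (10 females and 7 males) and the young adult controls with good hearing 8 mice (4 females and 4 males). Presbycusis is hearing loss of ageing. All mice were of this inbred strain, were bred in the submitters' own colony, aged normally and received no treatment. The mice's ages stand in none of the sources used here, and the groups are named by age for some mice and by hearing for others, so that age and hearing cannot be told apart in the comparisons with young controls or in those of presbycusis with middle-aged mice.

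Values are intensities on a linear scale that the authors scaled to a common trimmed mean on every array, 500.1 to 500.2, and intensities of different probe sets give no order of transcript levels. No detection calls were used here, and 33 of the 47 genes had a mean among the dimmest 40 percent of probe sets, so that part of their signal may be background. Differences were taken between log2(intensity + 16) values, where the added 16 makes changes of dim genes look smaller than they were. A gene is called where limma's adjusted p over the 22626 probe sets tested is under 0.05. Pairwise correlations of the arrays ran from 0.924 to 0.975. The summed intensity of 11 neuronal markers of the inferior colliculus was 24093 to 34697 in severe, 21219 to 42544 in mild, 23112 to 53929 in middle-aged and 27065 to 36823 in young mice. Young replicate 2 and middle-aged replicates 7 and 8 stood apart by cerebellar markers, with sums of 21682, 15844 and 3226, against at most 2160 in severe and 2048 in mild mice. Middle-aged replicate 8 thus stood apart far less than the others. By choroid plexus markers severe replicate 1, mild replicate 2 and young replicate 3 stood apart, with sums of 3235, 4578 and 9344, against at most 1769 on the other arrays. Severe replicate 1 also had the highest sums of the severe mice for meningeal markers (2822) and for monocyte and border macrophage markers (1888).

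Of the 47 genes, Ccl3 and Ccl6 rose in severe presbycusis, and no other was called in any of the 6 comparisons between groups. Ccl3, also known as macrophage inflammatory protein 1 alpha, is a ligand of Ccr1. Ccl6 is a rodent CC chemokine that in the mouse signals through Ccr1. Their genes are next to each other on chromosome 11 of the reference mouse assembly GRCm38.p6, in the row Ccl9, Ccl6, Ccl3, Ccl4, in a chromosome that carries 14 of the 46 members found in the gene table. The stretches below are the 250 bases before the start site of the called pair, of Ccl9 and of Cxcl10, taken from RefSeq (GRCm38.p6), where 34 of the 47 members have an entry. They are shown because the called pair are neighbours and Cxcl10 had the largest difference in mild presbycusis. All lie on the minus strand and are written 5′ to 3′. The positions are chr11:83649379-83649628 for Ccl3, chr11:83593088-83593337 for Ccl6, chr11:83578637-83578886 for Ccl9 and chr5:92348890-92349139 for Cxcl10. Capitals mark matches on either strand to 5 motifs, NF-kB (GGGA and CC with 4 bases of any kind between), the interferon-stimulated response element (GAAA and GAAA with 2 bases of any kind between), the PU.1 core (GAGGAA), AP-1 (TGA and TCA with 1 base of any kind between) and the TATA box (TATAAA).
Ccl3: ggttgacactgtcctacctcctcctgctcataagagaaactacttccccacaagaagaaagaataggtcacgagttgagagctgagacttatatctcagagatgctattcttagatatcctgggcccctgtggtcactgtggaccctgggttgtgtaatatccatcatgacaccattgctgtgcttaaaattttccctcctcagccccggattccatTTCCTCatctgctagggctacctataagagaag
Ccl6: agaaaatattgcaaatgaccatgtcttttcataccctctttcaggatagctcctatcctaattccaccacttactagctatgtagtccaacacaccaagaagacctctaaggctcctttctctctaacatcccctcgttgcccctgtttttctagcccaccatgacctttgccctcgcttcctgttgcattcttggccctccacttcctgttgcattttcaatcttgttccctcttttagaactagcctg
Ccl9: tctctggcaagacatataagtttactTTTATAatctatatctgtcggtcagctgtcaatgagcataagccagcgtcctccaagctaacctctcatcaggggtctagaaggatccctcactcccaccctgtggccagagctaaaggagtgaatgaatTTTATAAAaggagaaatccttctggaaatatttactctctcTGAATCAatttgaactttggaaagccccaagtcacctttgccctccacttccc
Cxcl10: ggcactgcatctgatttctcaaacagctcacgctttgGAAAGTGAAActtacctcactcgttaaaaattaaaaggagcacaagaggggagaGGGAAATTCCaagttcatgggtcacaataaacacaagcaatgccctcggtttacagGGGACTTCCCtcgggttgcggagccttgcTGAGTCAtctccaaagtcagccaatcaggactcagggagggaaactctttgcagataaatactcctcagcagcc
The Ccl3 stretch held 1 PU.1 core, beginning 33 bases before the start, and the Ccl6 stretch held none of the 5 motifs. The Cxcl10 stretch held 2 NF-kB matches, 1 interferon-stimulated response element and 1 AP-1 match, and the Ccl9 stretch 1 AP-1 match and 3 TATA box matches, 2 of which overlap. Among 27025 promoters of this length, 17.3% held the NF-kB letters, 3.04% the interferon-stimulated response element, 23.1% the PU.1 core, 6.87% AP-1 and 13% the TATA box, against 38.2%, 5.88%, 35.3%, 11.8% and 26.5% of the 34 chemokine and receptor promoters. A match is a run of letters, not a shown binding site.

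Ccl3 had intensities of 49.98, 64.3, 99.1, 103 and 134 in the 5 severe mice. It ranged from 13.2 to 76.4 (median 34.4) in the 9 mild mice, from 7.08 to 49.7 (median 18.7) in the 17 middle-aged mice and from 7.07 to 66.0 (median 18.5) in the 8 young controls. Every severe mouse lay above every middle-aged mouse, though the lowest severe mouse, the group's only male at 49.98, was close to the highest middle-aged mouse at 49.7. Of the 5 severe mice, 3 lay above every mild and every young mouse. Such a full separation upwards from middle-aged mice was seen in 0.168% of all probe sets. Ccl3 rose by 1.44 ± 0.24 on the log2 scale (SE) against middle-aged mice (limma adjusted p = 0.000353) and by 1.39 ± 0.27 against young controls (adjusted p = 0.00311). The mean intensity was 90.1 ± 33.5 in severe mice (SD, n = 5), 40.3 ± 21.6 in mild mice (n = 9), 21.2 ± 12.4 in middle-aged mice (n = 17) and 22.8 ± 19.04 in young controls (n = 8), so that the ratio of means was 4.25 to middle-aged and 3.95 to young mice.

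Between severe and mild mice, Ccl3 differed by 0.81 ± 0.27 (limma adjusted p = 1.0; unadjusted p = 0.00417, higher in 5 of 5 severe mice than the mild mean). No probe set at all was called between these 2 groups (0% of 22626). The mild mean lay between those of the other groups, at 0.58 ± 0.23 above young controls (adjusted p = 0.625) and 0.63 ± 0.19 above middle-aged mice (adjusted p = 0.481). Middle-aged and young mice differed by -0.05, with a 95% interval of -0.45 to 0.36. Both Ccl3 and Ccl6 were among the genes whose mean lay in the dimmest 40 percent of probe sets. The call of Ccl3 against young controls was lost when only those 2 groups were fitted (1.42, adjusted p = 0.104).

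Ccl6 had intensities of 126, 206, 258, 276 and 321 in the severe mice. In mild mice it ranged from 50.02 to 309 (median 191), in middle-aged mice from 42.9 to 132 (median 97.7) and in young controls from 63.1 to 178 (median 116). The 4 severe females lay above every middle-aged and every young mouse, and the severe male, at 126, lay within both groups. How common this pattern is among all probe sets was not counted. Ccl6 rose by 1.16 ± 0.25 against middle-aged mice (limma adjusted p = 0.0104), with means of 237 ± 74.7 in severe and 93.0 ± 28.1 in middle-aged mice (SD, n = 5 and n = 17). Against young controls, which averaged 115 ± 33.6 (n = 8), its difference was 0.87 ± 0.28 (adjusted p = 0.249), and all 5 severe mice were above the young mean.

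In mild mice, with a mean of 174 ± 78.7 (n = 9), Ccl6 was 0.75 ± 0.20 above middle-aged mice (limma adjusted p = 0.248), and 7 of the 9 mild mice lay above the highest middle-aged mouse. Without mild replicate 8, the lowest of them at 50.02, this difference was 0.90 and passed the test (adjusted p = 0.0215). The call of severe against middle-aged mice was lost without severe replicate 1, 3 or 5, with adjusted p-values of 0.0908, 0.0527 and 0.0558. A second Ccl6 probe set, one that may share probes with other transcripts, gave 0.48 ± 0.30 for the same comparison (adjusted p = 0.944). Averaged over both probe sets, the difference was 0.82 (adjusted p = 0.0448).

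**Figure D1:**
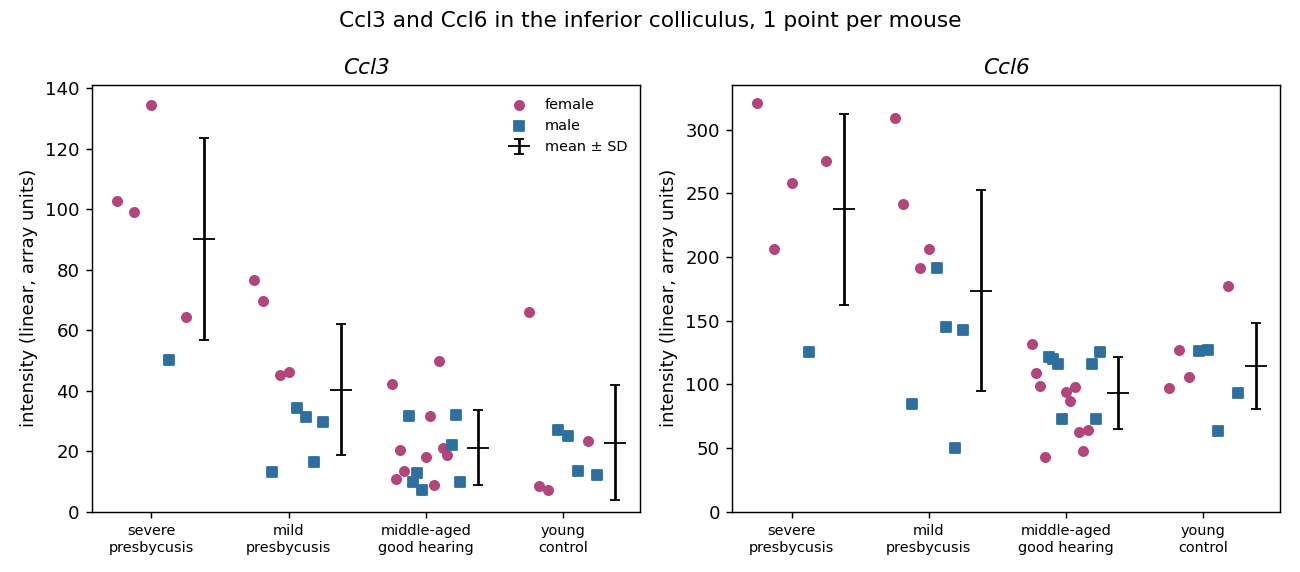
Intensity (linear, array units, axis from 0) of Ccl3 and Ccl6 in each mouse by group, circles for females and squares for males, with the group mean and SD at the right of each group. The severe mice lie at 49.98 to 134 for Ccl3 and 126 to 321 for Ccl6, and the only severe male is the lowest severe mouse in both panels.

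The counts behind these calls were small. Against young controls 1 of the 47 genes was called in severe mice (Ccl3), where 0.53% of all probe sets were called, and against middle-aged mice 2 were called (Ccl3 and Ccl6), where the background was 0.486%. In mild mice no member was called against young controls (background 0.168%) or against middle-aged mice (background 0.11%), and none in middle-aged against young mice (background 0.00442%). At an unadjusted p under 0.05 the members numbered 8 against young controls and 8 against middle-aged mice in severe presbycusis, 17.0% of 47 each, where the shares of all probe sets were 7.66% and 5.91%. For mild mice they numbered 6 against young controls and 7 against middle-aged mice (12.8% and 14.9%, beside 6.61% and 4.11% of all probe sets), for severe against mild mice 5 (10.6%, beside 3.73%) and for middle-aged against young mice 2 (4.26%, beside 5.09%). An F-test across the 4 groups called the same pair, Ccl3 (limma adjusted p = 0.000842) and Ccl6 (adjusted p = 0.0165), where 0.53% of all probe sets were called. The severe group appears in 3 of the comparisons and the young controls in 3, so their counts are not independent of each other.

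The median difference of the 47 genes lay close to that of all genes in severe mice and somewhat above it in mild mice. Their median difference was -0.03 in severe against young mice (18 higher, 29 lower; all genes -0.02) and -0.03 in severe against middle-aged mice (19 higher, 28 lower; all genes -0.02). In mild mice it was 0.13 against young controls (35 higher, 12 lower; all genes 0.04) and 0.11 against middle-aged mice (39 higher, 8 lower; all genes 0.03). In severe against mild mice it was -0.15 (13 higher, 34 lower; all genes -0.05). These medians are descriptions and were not tested.

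**Figure D2:**
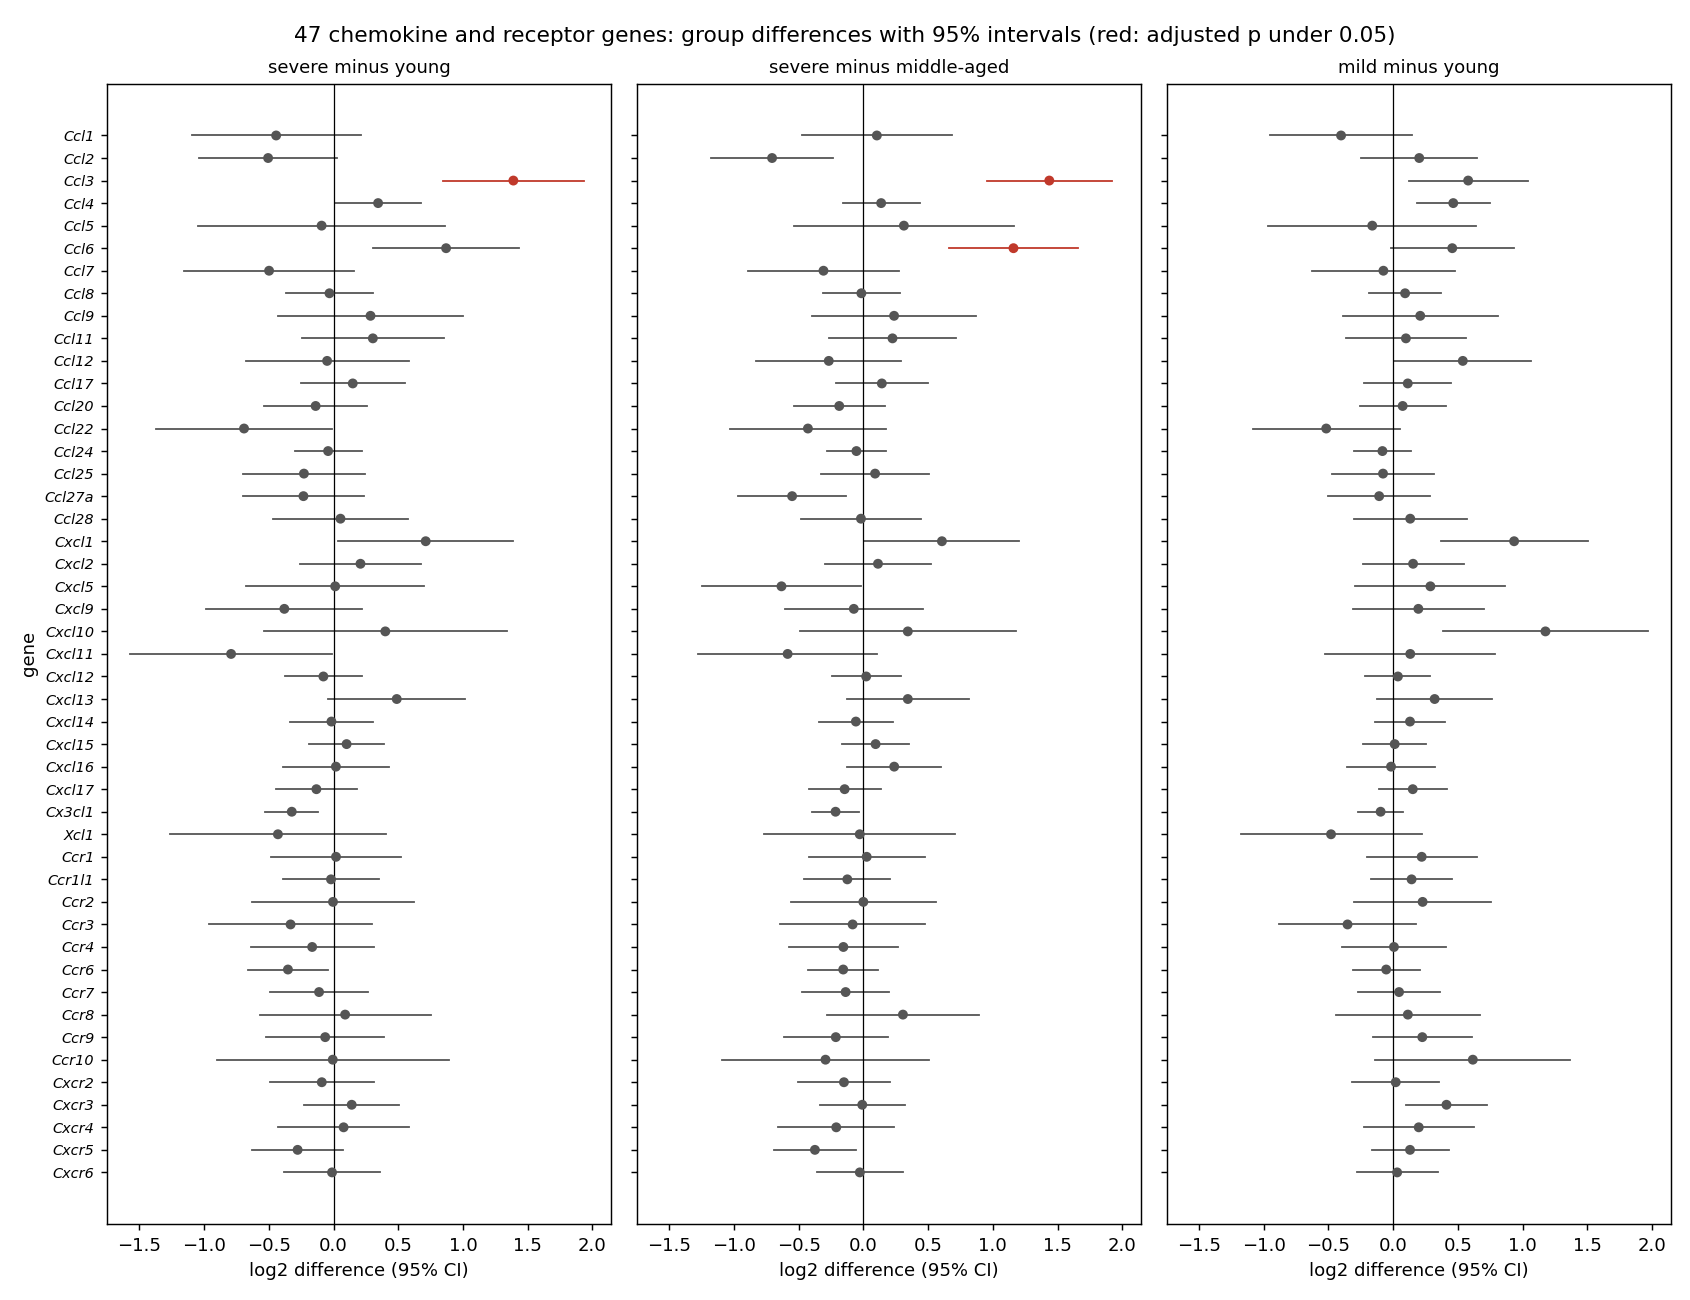
Differences on the log2(intensity + 16) scale (x axis) for all 47 genes (rows, by family) in severe minus young, severe minus middle-aged and mild minus young mice, as points with 95% intervals. Ccl3 at 1.39 and 1.44 and Ccl6 at 1.16 are in red (adjusted p under 0.05), and the other intervals are grey.

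The neighbours of the called pair were not called. Ccl4, macrophage inflammatory protein 1 beta, a chemoattractant of leukocytes, had intensities of 297, 355, 430, 452 and 465 in severe mice. It ranged from 316 to 546 (median 413) in mild, from 257 to 518 (median 325) in middle-aged and from 179 to 411 (median 294) in young mice. All 9 mild mice lay above the young mean, and 5 of them above the highest young control. Its difference was 0.46 ± 0.14 in mild against young mice (limma adjusted p = 0.29) and 0.34 ± 0.17 between severe and young mice (adjusted p = 0.639). Ccl9, macrophage inflammatory protein 1 gamma and a ligand of Ccr1, ranged from 64.6 to 136 in severe, from 30.97 to 180 in mild, from 23.5 to 137 in middle-aged and from 13.7 to 141 in young mice. The 4 groups overlapped over most of their range, and the severe mice differed from young controls by 0.29, with a 95% interval of -0.43 to 1.0.

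**Figure D3:**
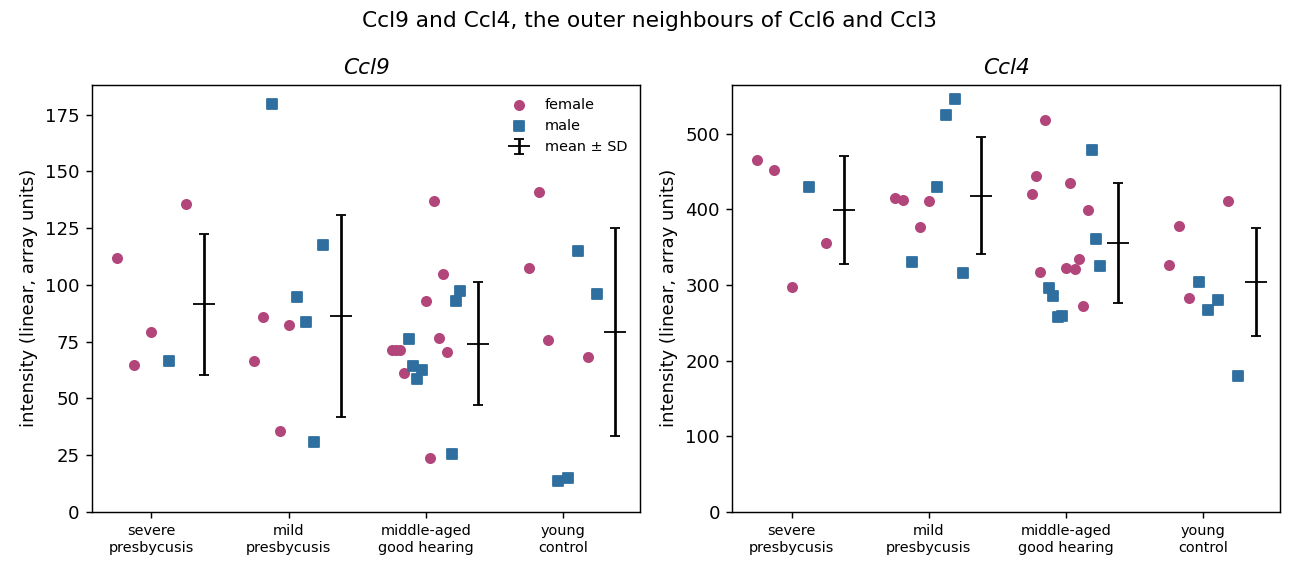
Intensity (linear, array units, axis from 0) of Ccl9 and Ccl4 in each mouse by group, circles for females and squares for males, with the group mean and SD. The ranges of the 4 groups overlap for both genes, from 13.7 to 180 for Ccl9 and from 179 to 546 for Ccl4.

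Of the other CC ligands, Ccl2 had the smallest p in severe against middle-aged mice and was not called. Ccl2, the main attractant of monocytes through Ccr2, had intensities of 34.7, 46.4, 68.7, 135 and 147 in severe mice, against 87.7 to 197 (median 131) in mild, 92.4 to 195 (median 136) in middle-aged and 65.3 to 262 (median 113) in young mice. Of the severe mice 3 lay below every mild and every middle-aged mouse, and 2 lay within those groups. The difference was -0.70 ± 0.23 against middle-aged mice (limma adjusted p = 0.365) and -0.71 ± 0.26 against mild mice (adjusted p = 1.0). Ccl27a, an epithelial ligand of Ccr10 read here by a probe set that may share probes with other transcripts, differed by -0.55 ± 0.21 between severe and middle-aged mice (adjusted p = 0.53), with all 5 severe mice below the middle-aged mean. The ranges overlapped, at 217 to 308 in severe and 219 to 845 (median 356) in middle-aged mice. Middle-aged males averaged 591 ± 230 (SD, n = 7) and middle-aged females 339 ± 123 (n = 10). Ccl22, a ligand of Ccr4, differed by -0.69 ± 0.33 between severe and young mice (adjusted p = 0.641). Over the 18 CC ligands the differences of severe from young mice ran from -0.69 to 1.39, 7 positive and 11 negative.

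Ccl8, another attractant of monocytes, was not called. It had 404 to 690 (median 492.9) in severe, 344 to 809 (median 580) in mild, 365 to 759 (median 518) in middle-aged and 370 to 674 (median 530) in young mice. Its difference of severe from young mice was -0.03, with a 95% interval of -0.36 to 0.30. Ccl1, a ligand of Ccr8, had 11.6 to 56.9 (median 37.4) in severe, 16.5 to 138 (median 22.6) in mild, 14.2 to 59.1 (median 27.4) in middle-aged and 21.2 to 144 (median 47.2) in young mice. Ccl25, a ligand of Ccr9, had 16.1 to 34.2 (median 21.1) in severe, 15.9 to 67.8 (median 27.01) in mild, 13.9 to 41.5 (median 21.02) in middle-aged and 16.4 to 121 (median 25.9) in young mice. The groups overlapped for both, and neither was called in middle-aged against young mice, at -0.55 ± 0.24 and -0.32 ± 0.17 (limma adjusted p = 0.95 and 0.981).

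Among the CXC ligands, Cxcl10 and Cxcl1 had the largest differences in mild mice, and neither passed the test with both sexes fitted. Cxcl10, an interferon-induced ligand of Cxcr3, had 15.4, 37.6, 53.6, 69.9 and 123 in severe mice, against 17.6 to 209 (median 115) in mild, 7.48 to 119 (median 40.1) in middle-aged and 10.9 to 103 (median 30.3) in young mice. Of the 9 mild mice, 6 lay above the highest young control. Its difference in mild mice was 1.18 ± 0.39 from young controls (limma adjusted p = 0.422) and 1.12 ± 0.33 from middle-aged mice (adjusted p = 0.404). Severe mice overlapped all the other groups. Cxcl9 and Cxcl11, the other interferon-induced ligands of Cxcr3, were not called either. Cxcl11 had 15.9, 34.9, 38.2, 48.5 and 97.1 in severe mice, against 40.9 to 156 (median 79.2) in mild, 24.8 to 168 (median 73.7) in middle-aged and 39.5 to 221 (median 55.9) in young mice. Its severe minus mild difference was -0.92 ± 0.38 (adjusted p = 1.0), and its severe minus young difference was -0.79 ± 0.39 (adjusted p = 0.644). Of the 5 severe mice 3 lay below every mild mouse. A second Cxcl11 probe set of similar mean intensity (74.5, against 80.9) did not show these differences. It gave -0.21 ± 0.28 for severe minus mild and 0.0025 ± 0.28 for severe minus young mice, and neither was called. Cxcl9 differed by 0.50 ± 0.21 between mild and middle-aged mice (adjusted p = 1.0).

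The 4 mild females carried the high Cxcl10 values. They had 150, 170, 189 and 209, above every other mouse of the series, whereas the 5 mild males had 17.6 to 115, the 10 middle-aged females 7.48 to 119 and the 4 young females 11.1 to 103. This subset was looked at by sex, and the share of all probe sets with such a separation was not counted. Among females alone Cxcl10 was called in mild mice against young controls (2.06, limma adjusted p = 0.0272) and against middle-aged mice (1.97, adjusted p = 0.0318). In these female fits 2.05% and 0.349% of all probe sets were called. Among males alone the difference from young controls was 0.44 (adjusted p = 0.842). The difference between the sexes was itself tested, as the mild minus young change in males minus that in females. It was -1.62 ± 0.71 for Cxcl10 (limma p = 0.029, adjusted p = 0.26) and was not called. None of the 47 genes was called in that test, where 1.23% of all probe sets were called. At an unadjusted p under 0.05 there were 6 members, and the share of all probe sets at that unadjusted level was not counted.

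Ccl3 and Ccl6 showed a like spread by sex in mild mice. Ccl3 had 45.3 to 76.4 in mild females and 13.2 to 34.4 in mild males, without overlap. How many of all probe sets separate the mild sexes in this way was not counted. Ccl6 had 192 to 309 in mild females and 50.02 to 191 in mild males, with the lowest female next to the highest male. Among females alone Ccl6 was called in mild against middle-aged mice (1.38, limma adjusted p = 0.0036) and in severe females against middle-aged ones (1.54, adjusted p = 0.000414), while Ccl3 was called in severe females against both middle-aged (1.59, adjusted p = 0.00508) and young ones (1.62, adjusted p = 0.0197). In the severe comparisons among females 0.522% of all probe sets were called against middle-aged and 1.09% against young mice. Among males alone the mild mice differed from middle-aged mice by 0.10 for Ccl6 and 0.30 for Ccl3 (adjusted p = 0.919 and 0.634). The test of the sex difference in mild against young mice gave -0.80 ± 0.44 for Ccl3 and -0.68 ± 0.40 for Ccl6 (adjusted p = 0.395 and 0.442). The severe group holds 1 male, so the sexes could not be compared there.

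Cxcl1, an attractant of neutrophils through Cxcr2, had 30.5 to 94.3 (median 61.1) in severe, 37.4 to 121 (median 73.6) in mild, 11.9 to 134 (median 32.6) in middle-aged and 17.4 to 66.6 (median 26.9) in young mice. All 9 mild mice and 4 of the 5 severe mice lay above the mean intensity of the young controls. The difference from young controls was 0.93 ± 0.28 in mild mice (limma adjusted p = 0.29) and 0.71 ± 0.33 in severe mice (adjusted p = 0.619). Cxcl5, another ligand of Cxcr2, had its highest median in middle-aged mice, with 40.9 to 122 in severe, 46.4 to 114 in mild, 33.9 to 223 in middle-aged and 7.96 to 148 in young mice. Its middle-aged minus young difference was 0.64 ± 0.25 (adjusted p = 0.936), and its severe minus middle-aged difference was -0.63 ± 0.30 (adjusted p = 0.813).

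Cx3cl1, or fractalkine, the membrane-bound chemokine of neurons, lay within a narrow range in severe mice, at the low end of the other groups. Its intensities were 363, 378, 386, 413 and 426 in severe mice, against 397 to 564 (median 440) in mild, 349 to 591 (median 455) in middle-aged and 390 to 540 (median 498) in young mice. All 5 severe mice lay below the mean of each other group, and 3 lay below every young control. The difference from young controls was -0.32 ± 0.10 (limma adjusted p = 0.231, 95% interval -0.53 to -0.12), and it was not called. Dimmer probe sets of Cx3cl1 gave -0.49 ± 0.40 and 0.07 ± 0.34 for the same comparison (adjusted p = 0.845 and 0.979). Cx3cr1, the receptor of Cx3cl1 and a defining marker of microglia, was no member by the symbol rule and rose in severe mice, by 0.81 ± 0.16 against young controls (adjusted p = 0.0044) and 0.72 ± 0.14 against middle-aged mice (adjusted p = 0.00436).

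**Figure D4:**
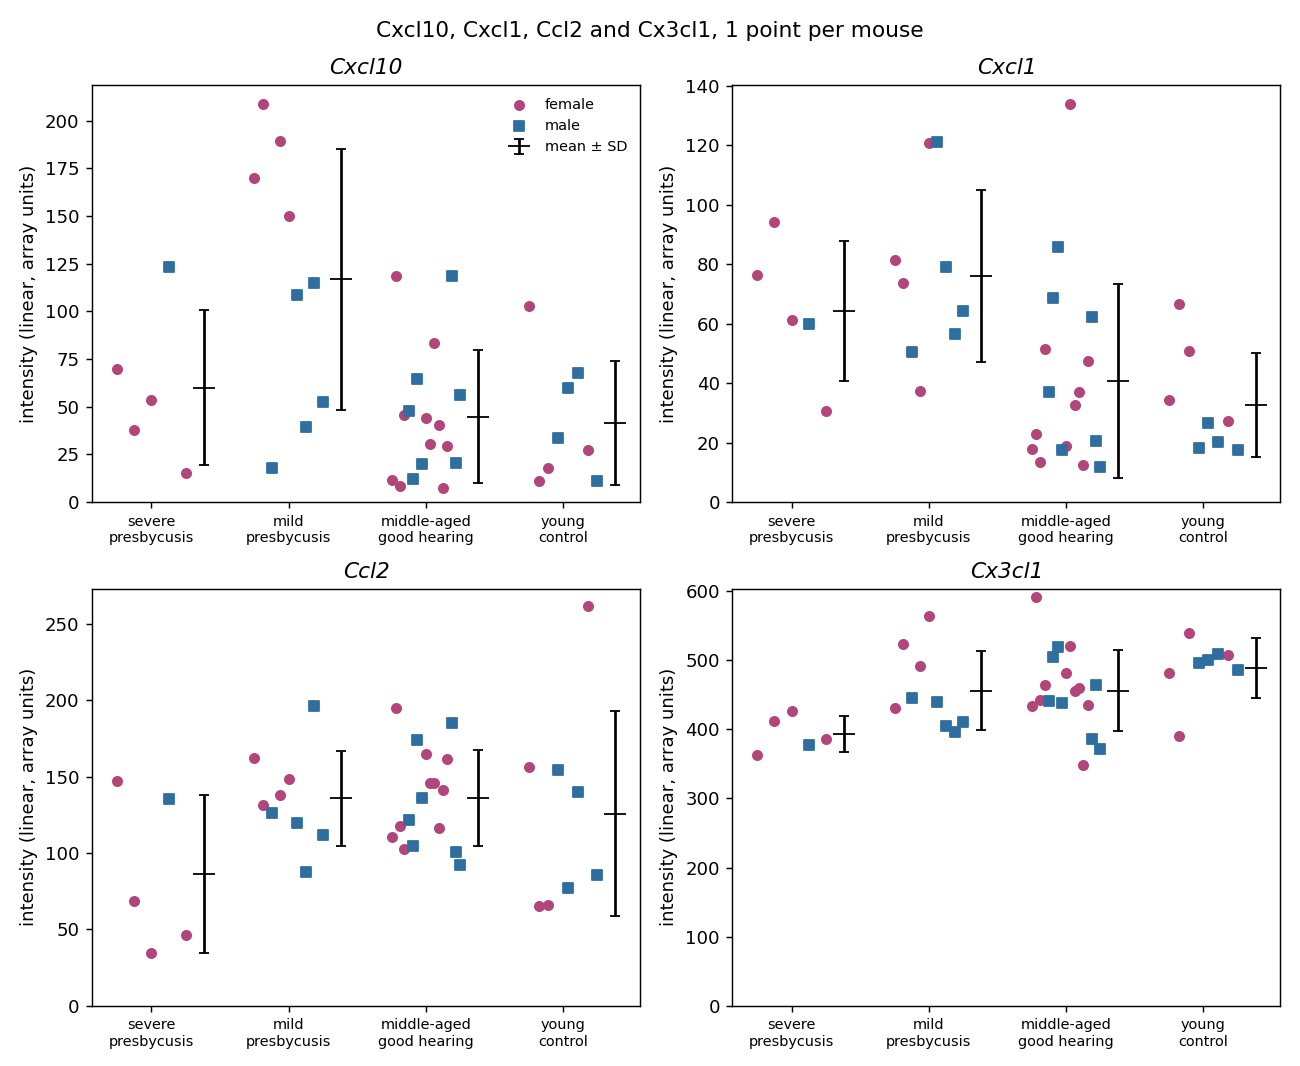
Intensity (linear, array units, axes from 0) of Cxcl10, Cxcl1, Ccl2 and Cx3cl1 in each mouse by group, circles for females and squares for males, with the group mean and SD. The 4 mild females have the highest Cxcl10 values (150 to 209), and the severe mice lie at 363 to 426 for Cx3cl1.

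Cxcl12 and Cxcl14 were not called, and their groups overlapped. Cxcl12, the ligand of Cxcr4 that is made in the resting brain, had 535 to 709 (median 564) in severe, 479 to 1080 (median 619) in mild, 458 to 794 (median 581) in middle-aged and 505 to 817 (median 624.9) in young mice. Its severe minus young difference was -0.08, with a 95% interval of -0.38 to 0.22. Cxcl14, a CXC chemokine of neurons and epithelia, had 529 to 787 (median 616) in severe, 499 to 878 (median 673) in mild, 458 to 1083 (median 636) in middle-aged and 436 to 766 (median 639) in young mice. Its severe minus young difference was -0.02, with a 95% interval of -0.34 to 0.30. Cxcl13, the attractant of B cells through Cxcr5, had 326 to 609 in severe and 216 to 496 in young mice, a difference of 0.49 ± 0.26 (limma adjusted p = 0.701). A second Cxcl13 probe set gave 0.77 ± 0.25 for the same comparison (adjusted p = 0.254).

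Of the 15 receptors none was called in any comparison. At most 1 had an unadjusted p under 0.05 in each, where the shares of all probe sets were 3.73% to 7.66%. Their severe minus young differences ran from -0.35 to 0.14, with 4 positive and 11 negative and a median of -0.02. In severe against mild mice 14 of the 15 were negative, with a median of -0.17, beside -0.05 for all genes. Ccr6, the receptor of Ccl20, had 261 to 489 (median 319) in severe, 329 to 609 (median 420) in mild, 295 to 525 (median 368) in middle-aged and 319 to 562 (median 447) in young mice. Of the 5 severe mice 4 lay below the young mean, and the highest lay within the young range. The difference was -0.35 ± 0.15 (limma adjusted p = 0.556). Ccr2, the receptor of Ccl2 on monocytes, had 41.2 to 182 in severe and 46.2 to 156 in young mice, and differed by -0.00398 with a 95% interval of -0.63 to 0.63. Cxcr3, the receptor of Cxcl9, Cxcl10 and Cxcl11, differed by 0.41 ± 0.15 in mild against young mice (adjusted p = 0.59), and Cxcr5, the receptor of Cxcl13, by -0.37 ± 0.16 between severe and middle-aged mice (adjusted p = 0.661).

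**Figure D5:**
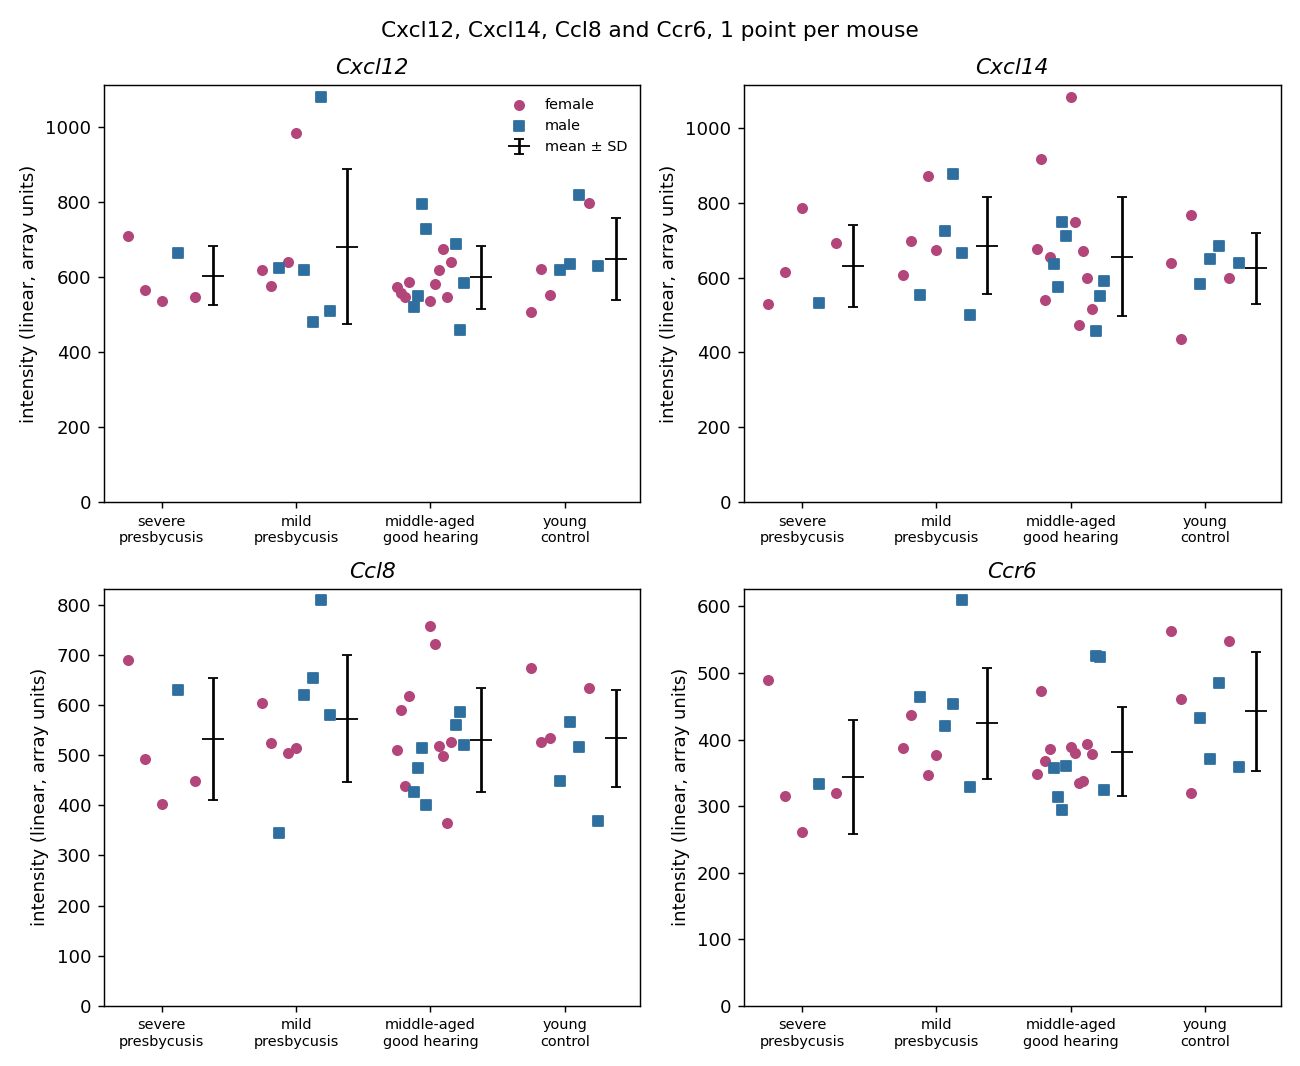
Intensity (linear, array units, axes from 0) of Cxcl12, Cxcl14, Ccl8 and Ccr6 in each mouse by group, circles for females and squares for males, with the group mean and SD. The groups overlap in every panel, and for Ccr6 the severe median of 319 is the lowest of the 4.

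Few genes of the surrounding pathway were called, in comparisons where 0.53% (severe against young) and 0.486% (severe against middle-aged) of all probe sets were called. Of 14 further genes of the chemokine system (atypical receptors, platelet chemokines and related receptors), Cx3cr1 rose in severe mice as given above and the other 13 were not called. Of 37 genes of signalling below chemokine receptors 31 were measured, and among them Itgb2, the beta chain of leukocyte integrins, rose in severe mice by 0.97 ± 0.21 against young controls (limma adjusted p = 0.0113) and 0.80 ± 0.19 against middle-aged mice (adjusted p = 0.0294). Elmo1, which acts with Dock proteins to activate Rac, fell by 0.63 ± 0.13 against young controls (adjusted p = 0.00513). Without the 3 arrays with choroid plexus signal neither passed the test (Itgb2 0.83 and 0.74, adjusted p = 0.139 and 0.154; Elmo1 -0.51, adjusted p = 0.105). Of 25 inducers of chemokine genes, such as cytokines, interferon factors and NF-kB subunits, 23 were measured and none was called in any comparison. At an unadjusted p under 0.05 there were 4 of them in mild against middle-aged mice, where the share of all probe sets was 4.11%, and 1 or 2 in each other comparison, where it was 3.73% to 7.66%. Their smallest unadjusted p in severe against young mice was that of Irf8 (0.37 ± 0.15, adjusted p = 0.518).

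Some microglial markers also rose in severe and mild mice. The summed intensity of 10 measured microglial markers was 10739 to 15094 in severe, 9892 to 14029 in mild, 8313 to 11897 in middle-aged and 6653 to 9512 in young mice. Of the 10, 4 rose in severe against young mice (Cx3cr1, Tyrobp, Ctss and Laptm5), and 2 in severe against middle-aged mice (Cx3cr1 and Tyrobp), where 0.53% and 0.486% of all probe sets were called. In mild mice 2 rose against young controls (Tyrobp by 0.85 and Ctss by 0.60, limma adjusted p = 0.0138 and 0.0255) and 1 against middle-aged mice (Tyrobp by 0.73, adjusted p = 0.0156), where the background was 0.168% and 0.11%. At an unadjusted p under 0.05 they numbered 6 of 10 against young controls in severe and in mild mice, where the shares of all probe sets were 7.66% and 6.61%. Without the 3 arrays with cerebellar signal the 2 in mild against young mice were lost (adjusted p = 0.0526 and 0.0798). Without the 3 arrays with choroid plexus signal they were lost too (adjusted p = 0.0569 and 0.174), as were the severe minus young calls of Ctss and Laptm5 (adjusted p = 0.0773 and 0.1004). In bulk tissue a change in the number of cells of a type and a change in RNA per cell cannot be told apart. After the means of group and sex were subtracted, Ccl3 correlated with the mean log2 level of the microglial markers over the 39 mice (Pearson r = 0.39, permutation p = 0.0136, adjusted over 3 pairs 0.0409; Spearman rho = 0.415, p = 0.00875, adjusted 0.0262). Without the 2 mice farthest from the median of Ccl3, r was 0.381. With a mean subtracted for each sex of each group, chosen after seeing the data, r was 0.453 (adjusted permutation p = 0.0108). The permutations made no allowance for the means subtracted, so their p-values tend to be too small, and 0.0409 lies near the threshold. Whether the correlation passes with such an allowance was not tested. Within single groups this correlation did not pass the test, with r of 0.0396 in mild, 0.56 in middle-aged and 0.475 in young mice (adjusted permutation p = 0.915, 0.0617 and 0.732). Ccl6 showed no such relation (r = 0.00475, permutation p = 0.977; rho = 0.00911, p = 0.958). The part of microglia in the rise of Ccl3 and Ccl6 was not tested further.

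Ccl3 and Ccl6 themselves correlated over the 39 mice with r = 0.333 (permutation p = 0.0387, adjusted 0.0581) and rho = 0.316 (p = 0.0509, adjusted 0.0764). Without the 2 mice farthest from the median, r was 0.482 (adjusted 0.00789). With a mean subtracted for each sex of each group it was 0.206 (adjusted 0.313). Within the 9 mild mice, where the mean of each sex among the mild mice was subtracted, it was 0.853 (exact permutation p = 0.00261, adjusted 0.00782), against 0.0252 within the 17 middle-aged and 0.0906 within the 8 young mice (adjusted 0.922 and 0.838), so it passed the test within the mild mice and in neither good-hearing group. These p-values too come from permutations without allowance for the means subtracted. The difference between these correlations was not tested.

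Of the markers of other leukocytes 1, Cd14, passed the test. None of 9 measured T cell markers, 6 of B and plasma cells or 6 of neutrophils was called in any comparison. At most 2 of a list had an unadjusted p under 0.05, where the shares of all probe sets were 3.73% to 7.66%. The T cell sum was 449 to 815 in severe, 608 to 855 in mild, 502 to 879 in middle-aged and 515 to 910 in young mice. Cd14, 1 of 7 measured monocyte and border macrophage markers, rose in severe against young mice (0.97 ± 0.18, limma adjusted p = 0.00241) and in mild against young mice (0.78 ± 0.15, adjusted p = 0.0108), and lost both calls without the arrays with choroid plexus signal (adjusted p = 0.0537 and 0.11). Of 5 astrocyte markers 1, Gfap, rose in severe mice, by 1.51 ± 0.32 against young controls (adjusted p = 0.00793) and 1.85 ± 0.28 against middle-aged mice (adjusted p = 7.9e-05). Without the 3 arrays with cerebellar signal, Ccl3 rose in severe mice by 1.28 against young controls (adjusted p = 0.0165) and by 1.40 against middle-aged mice (adjusted p = 0.000643), and Ccl6 by 1.18 against middle-aged mice (adjusted p = 0.0145). Without them Cx3cl1 differed by -0.39 between severe and young mice (adjusted p = 0.0727) and Cxcl10 by 1.04 between mild and young mice (adjusted p = 0.752), and Cx3cr1, Itgb2, Elmo1, Cd14 and Gfap kept each call given here. Without the 3 arrays with choroid plexus signal, which leaves 4 severe mice, Ccl3 kept its calls against middle-aged mice (1.40, adjusted p = 0.00214) and young controls (1.23, adjusted p = 0.0412), and the call of Ccl6 was lost (1.06, adjusted p = 0.101). The log2 ratio of 3′ over 5′ control probe sets, a sign of RNA quality, was 1.90 to 2.94 in severe, 1.38 to 2.71 in mild, 1.49 to 3.06 in middle-aged and 2.11 to 2.77 in young mice. With this ratio as a covariate, both calls of Ccl3 and the call of Ccl6 remained past the threshold (1.43, 1.38 and 1.07).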

How the data were processed

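Total RNA of the inferior colliculus was hybridized as biotin-labelled cRNA to MOE430A arrays, 1 per mouse, and group and sex come from the labels. The deposited values are intensities on a linear scale, 1 per probe set and array, which the authors had scaled to a common trimmed mean (checked on the values, with 2 percent left out at each end). Which algorithm summarised the probes is stated in none of the sources used here. A further 288 columns of per-sample values in the deposited tables were not used. After 64 array controls were left out, 22626 probe sets were analysed as log2(intensity + 16). The annotation gave 1 symbol for 20380 of them, several for 691 and none for 1555.

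limma 3.58.1 in R 4.3.3 was run on the 39 arrays with a mean for each group and a term for sex (34 residual degrees of freedom), and eBayes moderated the variances along their trend with intensity. Tests were 2-sided, with Benjamini-Hochberg adjustment over the 22626 probe sets and a threshold of 0.05. Values after ± are SE for differences and SD for intensities. Correlations used Python 3.11.15 with numpy 2.4.6 and scipy 1.17.1, on values with group and sex means subtracted, with 100000 permutations or, within groups of 8 and 9 mice, all of them. The permutations treated the values left as freely exchangeable, without allowance for the means subtracted. The number of arrays limits the precision, and each array is a separate mouse.

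The members and the lists of related and marker genes were chosen with earlier results of these data known. By rule, values per group are given for members called in any test, for the 3 with the smallest p where a comparison called none, and for the 5 whose probe sets had the highest intensity. The other members are given by ranges and counts, and Ccl9, Cxcl13, Ccr2, Cxcl9, Cxcr3, Cxcr5, Ccl22 and Ccl27a were named after their values were seen. Replicates are numbered in accession order, and the numbers pair nothing. On simulated data for severe against young mice, with 50 changed of 22626 probe sets per size, the fit recovered 24% of log2 changes of 0.5, 70% of 1, 92% of 1.5 and 98% of 2, with 10 false calls. The changed probe sets were drawn at random from all those tested, with independent normal noise. These rates need not hold for the 47 genes, of which 33 were among the dimmest 40 percent. The alternatives tried were quantile normalization, centring of arrays, a pseudocount of 1 or 64, a filter on the 40 percent dimmest probe sets, other covariates and variance models, other probe set choices, each sex alone, arrays left out and each mouse left out in turn. Leaving out the arrays with choroid plexus signal and subtracting a mean for each sex of each group were chosen after seeing the data.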

Additional observations from a re-analysis of the deposited data

Results flagged for a closer look

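Within the severe, mild and young groups, 4 of 45 combinations of group and named gene held 1 mouse far from the others by Dixon's test at the 95% level, where chance gives about 1 in 20. The middle-aged group was not tested in this way. Ccl1 was high in mild replicate 8, at 7.27 on the log2 scale, where the other mild mice had 5.02 to 6.09. Ccl25 was high in young replicate 5, at 7.09, against 5.02 to 5.75 in the other young mice, and in mild replicate 1, at 6.39, against 5.00 to 5.61 in the other mild mice. Cx3cl1 was low in young replicate 2, at 8.66, where the other young mice had 8.96 to 9.12. Young replicate 2 is 1 of the 3 arrays with high cerebellar markers.

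For 2 of the 47 genes every mild mouse of one sex lay above the mean log2(intensity + 16) of young mice of its sex. Every mild mouse of the other sex lay below it. Only the 47 genes were searched, and the share of all probe sets with this pattern was not counted. Ccl27a had a male minus female difference of -0.57 ± 0.35 in the mild minus young change (limma p = 0.107, adjusted p = 0.447). It had 277 ± 37.6 in mild and 357 ± 26.5 in young males (SD, n = 5 and n = 4), and 353 ± 25.996 in mild and 303 ± 37.4 in young females (n = 4 each). Ccr1l1, a receptor related to Ccr1, had a difference of 0.77 ± 0.27 (limma p = 0.00774, adjusted p = 0.146). It had 318 ± 106 in mild and 213 ± 42.2 in young males, and 236 ± 27.7 in mild and 288 ± 28.98 in young females. Neither passed the adjusted threshold.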

How the results depend on the processing

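Across the alternatives the rise of Ccl3 in severe mice was past the threshold except where named here. With the 40 percent dimmest probe sets left out, 14 of the 47 genes remained and 0 were called against young controls, against middle-aged mice or in the F-test, since Ccl3 and Ccl6 were themselves left out. Of all probe sets kept, 101, 88 and 103 were called in these tests. With only the 2 groups compared, 0 of the 47 genes were called in severe against young mice (Ccl3 1.42, adjusted p = 0.104), where 43 of all probe sets were called. Females alone gave 1 call in mild against young mice (Cxcl10 at 2.06) and 2 in mild against middle-aged mice (Ccl6 at 1.38 and Cxcl10 at 1.97), and called 3 genes in the F-test (Ccl3, Ccl6 and Cxcl10). Those 2 female comparisons called 2.05% and 0.349% of all probe sets, and the share for the female F-test is not given here. Without the 3 arrays with choroid plexus signal, chosen after seeing the data, 1 gene, Ccl3, was called in severe against middle-aged mice and in the F-test (Ccl6 1.06, adjusted p = 0.101). There 76 and 78 of all probe sets were called. Leaving out each mouse in turn, the counts ranged from 1 to 2 in severe against middle-aged mice and in the F-test (1 without severe replicate 1 or 5, and for the comparison also without replicate 3), and from 0 to 1 for mild against middle-aged mice (1 without mild replicate 8). They were 1 throughout for severe against young mice and 0 throughout in the other comparisons. Without severe replicate 1, 3 or 5, 73, 77 and 88 of all probe sets were called against middle-aged mice. The F-test called 96 and 102 without severe replicate 1 or 5. Mild against middle-aged mice had 30 without mild replicate 8. Ccl3 differed in severe mice by 1.32 to 1.54 against middle-aged and by 1.25 to 1.56 against young mice, and Ccl6 by 1.06 to 1.34 against middle-aged mice. The near-zero middle-aged minus young difference of Ccl3 (-0.05) turned to 0.032 in females alone and to 0.11, 0.02 and 0.01 without young replicate 1, 4 or 5, and ranged from -0.17 to 0.11; that of Ccl6 (-0.29) turned to 0.064 in males alone. The correlation of Ccl3 and Ccl6 (0.333) was 0.482 without the 2 farthest mice, 0.853 within mild mice and 0.206 with a mean for each sex of each group subtracted; that of Ccl3 with the microglial markers (0.39) was 0.0396, 0.56 and 0.475 within mild, middle-aged and young mice; that of Ccl6 (0.00475) was -0.277 within mild mice. The cause of these changes was not tested beyond what is said of the filter. No paired analysis was possible because each mouse has its own number and no number is shared between groups. Signal over background limits the dim genes, for which no detection calls were used.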
